A study of Mus musculus with 3 samples.

Results

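Expression of 10 genes of the AP-1 transcription factors was examined in bone marrow (BM) Ly6G+ myeloid cells, a neutrophil-rich population, of mice with or without vector-delivered IL-27. Coordinates are on GRCm38.p6 (mm10). The genes were taken by name (Fos, Fosb, Fosl1, Fosl2, Jun, Junb, Jund, Atf3, Batf and Maff). No rule on their values was used, but earlier results of these data were known when they and the gene lists below were chosen. All 10 were found among the 16072 genes with a symbol. The samples were 2 libraries of AAV-ctrl mice and 1 library of an AAV-IL27 mouse. All animals were C57BL/6 mice that had B16.F10 melanoma cells placed under the skin 1 week before the adeno-associated virus (AAV) was injected into muscle, so the AAV-ctrl animals bore the tumour inoculum as well. AAV-IL27 carries the linked EBI3 and p28 subunits of IL-27 behind the ubiquitous CAG promoter, AAV-ctrl is the empty vector. Neither the ages nor the time from vector to harvest is given in the labels, which count 4 mice while 3 samples are described. Values are FPKM (fragments per length of transcript and number of mapped fragments), a unit that can be compared between genes, and differences are in log2(FPKM + 1). Genes with low FPKM change less on that scale than in FPKM itself. With 1 AAV-IL27 library analysed here there is no replicate error for that group, so no test was run, and each difference is set against the gap between AAV-ctrl 1 and AAV-ctrl 2.

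AP-1 is a dimer of proteins with a basic DNA-binding region and a leucine zipper. Jun proteins pair with each other or with Fos, ATF and BATF proteins, Fos proteins need such a partner, and the dimers bind the TPA response element (TRE, TGANTCA) or the cAMP response element (CRE, TGACGTCA). Many of these genes are immediate early genes, which are transcribed within minutes of a growth factor, cytokine or stress signal through MAP kinases. In neutrophils and their precursors they are known for the response to activation, and JunB for holding back the growth of the myeloid lineage.

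Neutrophil transcripts dominated each library, with summed FPKM of 12 neutrophil markers between 163648 and 172984, and Ly6g reached 711.76 FPKM in AAV-ctrl 1, 766.11 in AAV-ctrl 2 and 586.29 in AAV-IL27. Sets of 3 values keep this order of libraries throughout. Other cells were measurable too. The summed FPKM of 11 macrophage markers was 619.6 and 650.24 in the AAV-ctrl libraries and 174.65 in AAV-IL27, and 10 of the 11 lay 1 log2 unit or more under each AAV-ctrl library. Likewise lower were 7 of 7 erythroid, 5 of 5 B cell and 3 of 5 megakaryocyte markers with a mean FPKM ≥ 1, against 2.32% of all such genes. Of 6 monocyte markers none was that far from both, but 4 lay above both by some amount and none below. Of all genes with a mean FPKM ≥ 1, 38.9% lay above and 41.9% below. The median log2 difference of the 6 was 0.29. Their sums of 1109.17, 1170.61 and 1233.64 were mostly Ly6c2 (1023.13, 1086.23 and 1145.19 FPKM). The 6 T and NK cell markers summed to 10.57, 11.43 and 12.84 FPKM, and those of eosinophils, basophils and mast cells to 23.87, 27.27 and 22.95. Of 5 eosinophil, basophil and mast cell markers with a mean FPKM ≥ 1, 1 lay above both AAV-ctrl libraries and 3 below. The shares over all such genes were 38.9% and 41.9%, and the median log2 difference of the 5 was -0.36. Of 4 melanoma markers, 2 were in the table, at sums of 0.33, 0.7 and 0.35 FPKM. In bulk RNA, fewer cells of a type and less RNA per cell cannot be told apart, and the part of these cells in the AP-1 values was not tested.

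Junb and Fos supplied most of the AP-1 mRNA, and their levels in the AAV-IL27 library lay within or close to the AAV-ctrl range. Junb (NCBI Gene 16477, chr8:84976909-84978748) was at 516.47 FPKM in AAV-ctrl 1, 419.22 in AAV-ctrl 2 and 434.3 in AAV-IL27. The AAV-IL27 value sat between the AAV-ctrl libraries, which differed from each other by 1.23-fold. The AAV-ctrl mean was 468 ± 68.8 (SD, n = 2) FPKM, the log2 difference was -0.10, and Junb ranked between 120 and 141 among all genes. Fos (14281, chr12:85473890-85477274) was at 243.39, 253.62 and 257.42 FPKM, ranking between 246 and 255. The AAV-IL27 value was the highest of the 3, but by only 0.02 on the log2 scale over AAV-ctrl 2, less than the 0.06 between the AAV-ctrl libraries. Junb made up 54.0%, 49.0% and 48.2% of the summed FPKM of the 10 genes in AAV-ctrl 1, AAV-ctrl 2 and AAV-IL27, and Fos 25.4%, 29.6% and 28.6%. The whole sum was 957.21, 855.95 and 900.24 FPKM, so the AAV-IL27 library held 99.3% of the AAV-ctrl mean.

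The 10 genes kept the same order of level in each library (the plot of levels by library), from Junb through Fos, Jund, Fosl2, Jun, Batf, Atf3, Maff and Fosb to Fosl1. Neighbours in this order did not overlap over the 3 libraries down to Atf3 and Maff. Maff, from 0.28 to 1.01 FPKM, overlapped with Fosb, from 0.15 to 0.31, and the position of these genes relative to each other rested on few fragments.

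**Figure D1:**
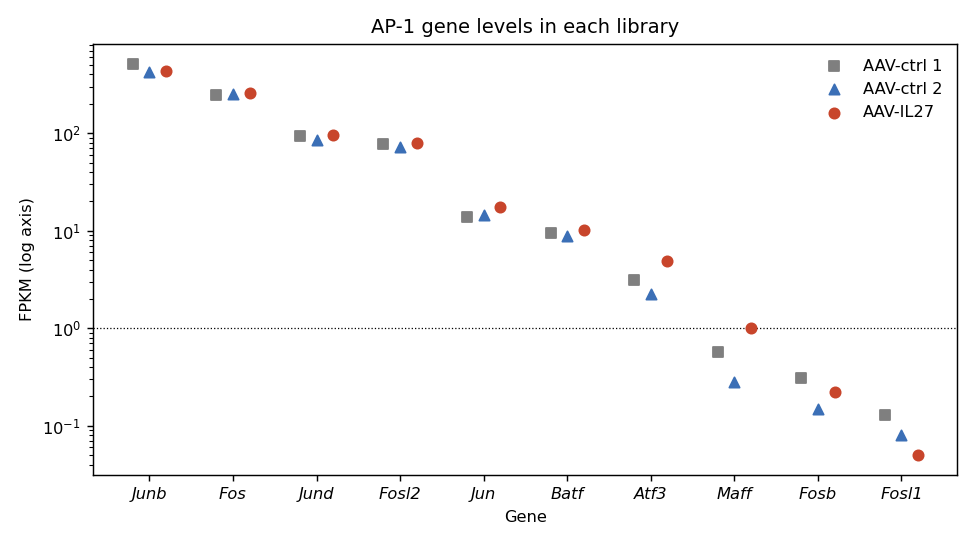
FPKM on a log axis of the 10 AP-1 genes, ordered by their mean, in AAV-ctrl 1 (squares), AAV-ctrl 2 (triangles) and AAV-IL27 (circles). Each point is 1 library and the dotted line marks an FPKM of 1. The genes spread from 516.47 FPKM (Junb) to 0.05 FPKM (Fosl1). The AAV-IL27 points stand above both AAV-ctrl points for Jun, Atf3 and Maff and, by less, for Fos, Fosl2, Jund and Batf. They stand below both for Fosl1, which rests on 2 to 4 estimated fragments.

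Among the Jun proteins, which can form AP-1 dimers without a Fos protein, Jun itself was higher in the AAV-IL27 library. Jun (16476, chr4:95049036-95052222) was at 13.96 FPKM in AAV-ctrl 1, 14.45 in AAV-ctrl 2 and 17.62 in AAV-IL27, which is 1.26-fold and 1.22-fold the AAV-ctrl values. The AAV-ctrl libraries were close together (14.2 ± 0.346, SD, n = 2), and the log2 difference of 0.29 was above the 0.05 that separated them. These FPKM correspond to an estimated 817, 857 and 1037 fragments, and the 95% Poisson interval of AAV-IL27, from 974.8 to 1102.1, did not reach those of AAV-ctrl 1, up to 875, and AAV-ctrl 2, up to 916.4. Such intervals cover counting error only. For Junb, those of AAV-ctrl 1 (16688.8 to 17200.1 fragments) and AAV-ctrl 2 (13706.6 to 14170.3) did not overlap either. Jund (16478, chr8:70697739-70700616), which encodes the Jun protein least dependent on stimulation, was at 93.03, 85.6 and 95.9 FPKM. Its AAV-IL27 value exceeded AAV-ctrl 1 by 0.04 on the log2 scale, within the 0.12 between the AAV-ctrl libraries. The balance between Junb and Jun differed by library, with Junb 37.0 times Jun in AAV-ctrl 1, 29.0 times in AAV-ctrl 2 and 24.6 times in AAV-IL27. The 3 Jun genes together summed to 623.46, 519.27 and 547.82 FPKM, with AAV-IL27 between the AAV-ctrl libraries.

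Among the Fos proteins, which cannot bind DNA without a partner, no gene stood far from the AAV-ctrl libraries. Fosl2 (14284, chr5:32136472-32157840) encodes Fra-2, a Fos relative without the strong transactivation domain of c-Fos, and was at 76.73, 71.52 and 78.61 FPKM. Its log2 difference of 0.08 was no larger than the 0.10 between the AAV-ctrl libraries. Fosb (14282, chr7:19302696-19310118) was at 0.31, 0.15 and 0.22 FPKM, an estimated 22, 11 and 15 fragments, with AAV-IL27 between the AAV-ctrl libraries. Fosl1 (14283, chr19:5447698-5455938), which encodes Fra-1, was at 0.13, 0.08 and 0.05 FPKM, an estimated 4, 3 and 2 fragments. A difference in Fosb or Fosl1 was not detectable at this depth, since their intervals overlapped between all libraries (for Fosl1 from 1.1 to 10.2, 0.6 to 8.8 and 0.2 to 7.2 fragments). The 4 Fos genes summed to 320.56, 325.37 and 336.3 FPKM, 104% of the AAV-ctrl mean in AAV-IL27.

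Atf3 and Maff had the highest differences of the 10 genes. Atf3 (11910, chr1:191170296-191183333), which encodes a stress-induced repressor of inflammatory genes, was at 3.1 FPKM in AAV-ctrl 1, 2.24 in AAV-ctrl 2 and 4.87 in AAV-IL27. Its AAV-IL27 value was 1.57-fold and 2.17-fold the AAV-ctrl values, while the AAV-ctrl libraries differed by 1.38-fold. The log2 difference was 0.69, the gap between AAV-ctrl 1 and AAV-ctrl 2 was 0.34, and 98 of 9130 genes with a mean FPKM ≥ 1 (1.07%) had one as high. Atf3 corresponds to an estimated 112, 82 and 177 fragments. The 95% Poisson interval of AAV-IL27, from 151.9 to 205.1, did not reach those of AAV-ctrl 1 (92.2 to 134.8) and AAV-ctrl 2 (65.2 to 101.8). As for Jun, these intervals cover counting error only. Maff (17133, chr15:79346621-79359078), a small Maf protein that has no transactivation domain and pairs with NRF2 and BACH proteins, was at 0.57, 0.28 and 1.01 FPKM. The AAV-IL27 value was 1.77-fold and 3.61-fold the AAV-ctrl values, but AAV-ctrl 1 and AAV-ctrl 2 themselves differed by 2.04-fold. Maff has 4 listed transcripts of different lengths, and even with the longest its values stand for only about 20, 10 and 36 fragments, with intervals for AAV-ctrl 1 (12.2 to 30.9) and AAV-IL27 (25.2 to 49.8) that overlapped. Its log2 difference of 0.50 was reached by 32 of 3295 genes with a mean FPKM from 0.1 to under 1 (0.971%), and 17.5% of those genes lay above both AAV-ctrl libraries by any amount. Batf (53314, chr12:85686720-85709087), which lacks a transactivation domain and pairs with Jun proteins and IRF4 or IRF8, was at 9.52, 8.79 and 10.24 FPKM. It was above both AAV-ctrl libraries by 0.10 on the log2 scale, about the 0.10 that separated them, and its Poisson intervals overlapped (127 to 176 fragments in AAV-ctrl 2 and 149.1 to 201.9 in AAV-IL27).

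**Figure D2:**
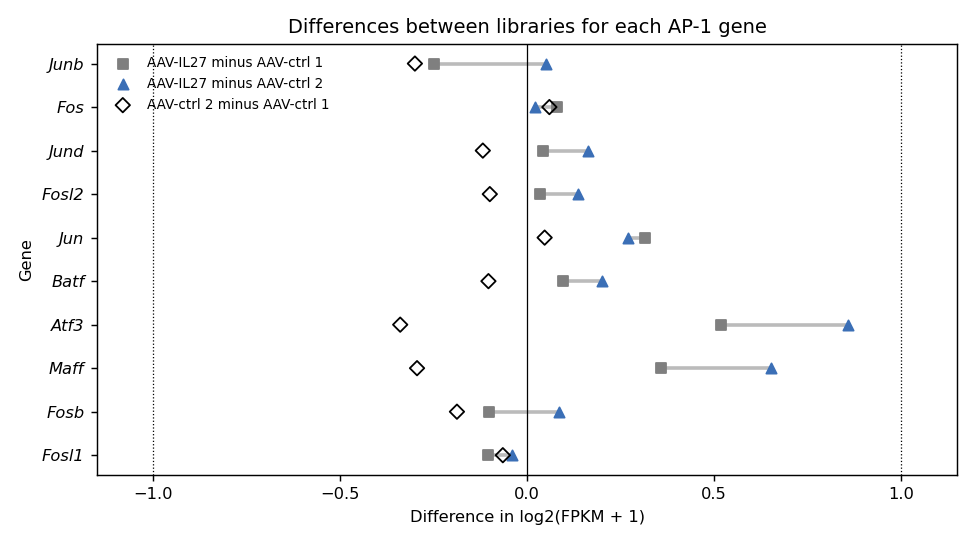
Differences in log2(FPKM + 1) for each AP-1 gene: AAV-IL27 minus AAV-ctrl 1 (squares), AAV-IL27 minus AAV-ctrl 2 (triangles) and AAV-ctrl 2 minus AAV-ctrl 1 (open diamonds), with dotted lines at -1 and 1. Atf3 lies furthest to the right (0.52 and 0.86), followed by Maff (0.36 and 0.65) and Jun (0.32 and 0.27), and none of the genes reaches 1.

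A gene was called higher or lower when it lay at least 1 log2 unit beyond both AAV-ctrl libraries and had a mean FPKM ≥ 1 over the 3 libraries, which 7 of the 10 AP-1 genes had (not Maff, Fosb and Fosl1). None of the 7 was called. Over all 9130 such genes, 28 were called higher (0.307%) and 212 lower (2.32%). At a distance of 0.5 in place of 1, only Atf3 was past it, against 143 of the 9130 genes (1.57%). By any amount, 6 of the 7 genes lay above both AAV-ctrl libraries and none below, with Junb in between, while 38.9% of all genes lay above and 41.9% below. For Fos, Fosl2, Jund and Batf this distance was from 0.02 to 0.10, against a median size of 0.087 for the difference between the AAV-ctrl libraries over all 9130 genes. The median log2 difference of the 7 genes was 0.10, and that of all genes was -0.01. The plot against all genes places each of the 7 in that distribution.

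**Figure D3:**
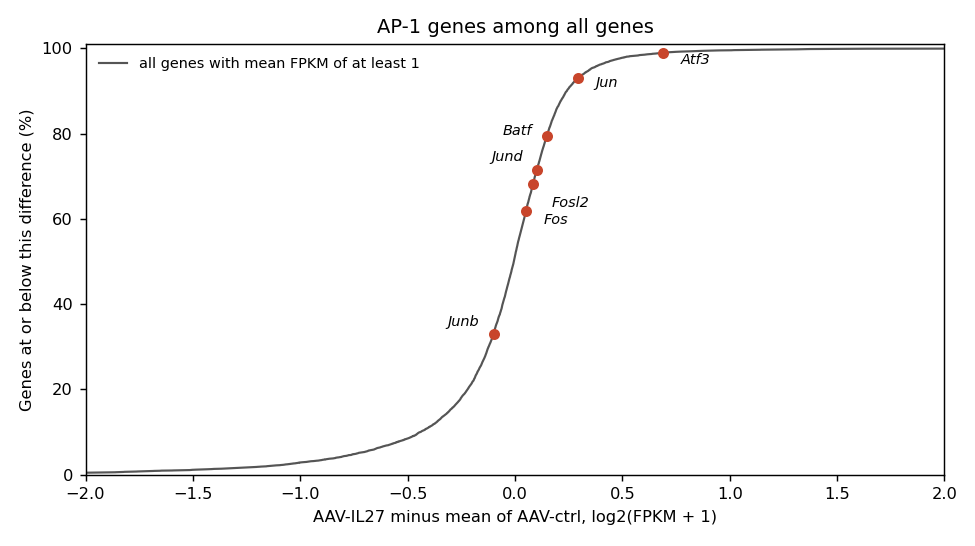
Cumulative share in percent of the 9130 genes with a mean FPKM ≥ 1 (line) by the AAV-IL27 minus mean AAV-ctrl difference in log2(FPKM + 1). Points mark the 7 AP-1 genes that reach this level; 1.07% of all genes had a difference as high as Atf3, 7.0% as high as Jun, and 66.9% as high as Junb.

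The promoters of the most abundant genes (Fos and Junb) and of the 3 genes with the highest differences (Jun, Atf3 and Maff) are shown because AP-1 genes are themselves known targets of AP-1 and ATF dimers. Sequences are from RefSeq on GRCm38.p6, run from 120 bases before to 30 bases after the transcription start, are written 5′ to 3′ on the gene's strand, and have motif matches in capitals.
Fos (chr12:85473770-85473919, plus strand): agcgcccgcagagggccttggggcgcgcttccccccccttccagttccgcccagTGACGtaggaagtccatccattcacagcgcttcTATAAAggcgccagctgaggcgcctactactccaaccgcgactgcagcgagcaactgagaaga
Junb (chr8:84978719-84978868, minus strand): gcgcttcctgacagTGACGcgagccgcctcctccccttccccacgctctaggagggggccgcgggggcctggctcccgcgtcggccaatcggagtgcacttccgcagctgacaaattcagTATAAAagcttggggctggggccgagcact
Jun (chr4:95052193-95052342, minus strand): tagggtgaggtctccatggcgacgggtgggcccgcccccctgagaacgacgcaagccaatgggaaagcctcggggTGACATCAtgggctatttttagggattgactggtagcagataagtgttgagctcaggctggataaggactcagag
Atf3 (chr1:191183304-191183453, minus strand): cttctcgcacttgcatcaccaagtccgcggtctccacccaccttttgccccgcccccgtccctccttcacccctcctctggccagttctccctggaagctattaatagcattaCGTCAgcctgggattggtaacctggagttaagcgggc
Maff start 2 (chr15:79347400-79347549, plus strand): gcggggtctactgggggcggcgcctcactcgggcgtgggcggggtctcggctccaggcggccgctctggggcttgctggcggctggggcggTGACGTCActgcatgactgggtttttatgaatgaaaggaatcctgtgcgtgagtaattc
Maff start 3 (chr15:79348282-79348431, plus strand): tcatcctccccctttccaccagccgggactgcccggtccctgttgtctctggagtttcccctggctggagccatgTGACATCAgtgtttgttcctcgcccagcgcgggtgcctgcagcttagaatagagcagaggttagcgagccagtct

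Capitals mark TGACG, the core of the CRE, in Fos (first base 66 bases before the start), Junb (106 bases) and, read on the other strand, Atf3 (7 bases). They mark the whole CRE, TGACGTCA, at Maff start 2 (29 bases before the start) and TGACATCA, a TRE of the kind known from the Jun promoter, in Jun and at Maff start 3 (45 bases before the start in both). TATAAA is in capitals in Fos, 33 bases before the start, and in Junb at the start. On both strands of the full 300 bases from 250 before to 50 after each start, 9 of the 10 genes had 11 promoters to search. TGACG was found in 7 of these 11 promoters, of 6 genes, against 20.8% of all 32851 promoters, and counts again the match within TGACGTCA, which 1 of the 11 had (1.79% of all promoters). TGACATCA was found in 2 of the 11 (3.62% of all promoters), TATAAA in 2 (13.6%), the EGR site GCGGGGGCG in 2, those of Fosl2 and Fosb (2.91%), and the STAT site TTCNNNGAA in 1, at Maff (8.3%). TGANTCA (7.81%) and the CArG box of serum response factor (1.63%) had no match in these windows. Bases outside the windows were not searched, so sites further from a start would not be seen. Of the 3 genes with the highest differences, Jun and Maff share TGACATCA and Atf3 does not have it, and TGACG was present both in Atf3 and in Fos and Junb, which differed little. A match is a stretch of letters and no measurement of binding.

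**Figure D4:**
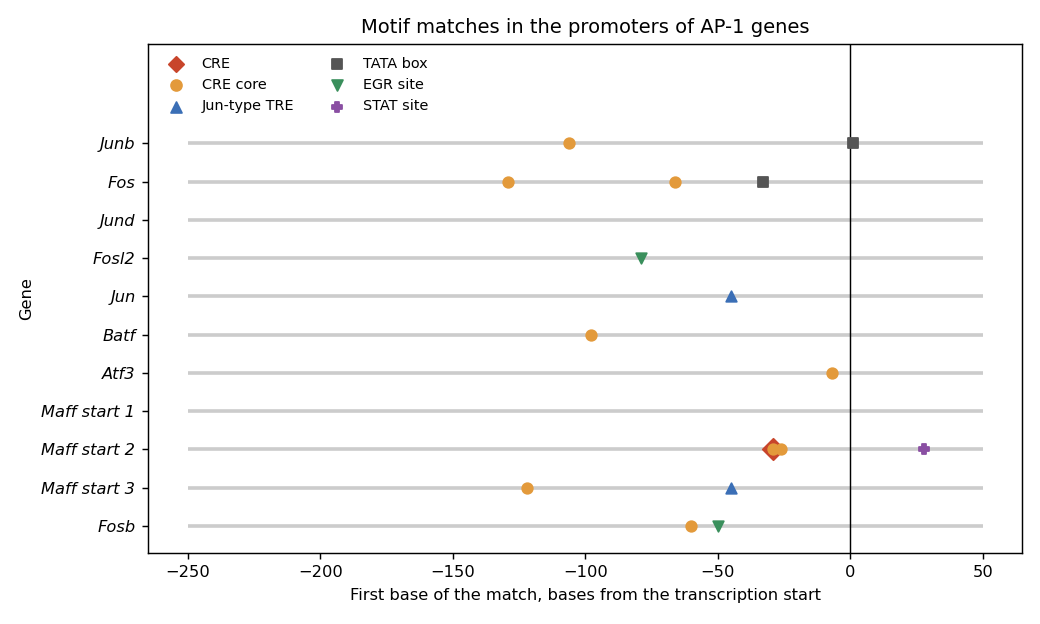
Position of the first base of each motif match, in bases from the transcription start (vertical line), in the 11 promoters of 9 AP-1 genes, from 250 bases before to 50 after the start. Grey lines are the searched windows, and the large diamond at Maff start 2 is the CRE, on which 2 matches of its core lie.

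The other genes of the pathway were grouped by role. Of 21 other genes of the basic leucine zipper (bZIP) class, 18 had a mean FPKM ≥ 1. None was called higher and 2 were called lower, against 0.307% and 2.32% of all genes. Among the 2 was Maf, a factor of macrophages and lymphocytes. Maf was at 5.68, 4.98 and 1.74 FPKM, a log2 difference of -1.21. It moved with the macrophage markers, whose median log2 difference was -1.82, and the part of macrophages in its value was not tested. Partners of the AP-1 genes that differed less were Jdp2, a Jun dimerization protein, at 62.03, 60.76 and 71.27 FPKM, and Nfe2l2, which encodes the Maff partner NRF2, at 115.0, 108.1 and 136.19 FPKM, both named after their values were seen. The median of the 18 genes was 0.06.

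Upstream of AP-1, the MAP kinase cascade and the factors that MAP kinases act on at immediate early promoters lay within 0.5 log2 units of the AAV-ctrl mean. None of 19 MAP kinase genes with a mean FPKM ≥ 1 (of 20 listed) was called. Of the 19, 12 lay above both AAV-ctrl libraries and 2 below, against 38.9% and 41.9% of all genes. Their lowest difference was -0.18 in Rps6ka3, a ribosomal S6 kinase (16.58, 16.46 and 14.46 FPKM). The highest was 0.40 in Map3k5, the stress kinase ASK1 (31.59, 27.73 and 39.48 FPKM). Of 9 serum response and MEF2 factors, none was called and 8 lay above both AAV-ctrl libraries, against the 38.9% of all genes. Their differences ran from 0.07 in the ETS factor Elk1 (7.26, 7.12 and 7.58 FPKM) to 0.49 in Mef2d (12.42, 12.2 and 17.63 FPKM), with a median of 0.21.

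The phosphatases that switch MAP kinases off, themselves induced by MAP kinase signals, had a median of 0.58 over the 6 of 9 genes with a mean FPKM ≥ 1, and of 0.25 over all 9. Dusp5, which acts on ERK in the nucleus, was called higher, with 7.45, 8.47 and 21.2 FPKM, a log2 difference of 1.31. Of the others, named after their values were seen, Dusp2 (1.6, 1.79 and 4.43 FPKM) lay 0.96 above the nearer AAV-ctrl library and Dusp6, the cytoplasmic ERK phosphatase, 0.68 above it at 110.42, 124.37 and 199.49 FPKM. Dusp1, which acts on JNK and p38, was at 214.74, 223.45 and 260.48 FPKM, a log2 difference of 0.25. Of the 6, 5 lay above both AAV-ctrl libraries, where 38.9% of all genes lay, and none below. Of the 3 genes under the filter, Dusp3 (1.13, 1.04 and 0.46 FPKM) and Dusp10 (0.37, 0.23 and 0.2 FPKM) lay below both, and Dusp3 missed the filter through its AAV-IL27 value.

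Other immediate early genes, which share their inducing signals with Fos and Jun, differed among themselves. Of 17 genes with a mean FPKM ≥ 1 (of 19), 3 were called higher and none lower, against 0.307% and 2.32% of all genes. The median was 0.20, and 0.14 over all 19. The called genes were the zinc finger factors Egr1 (2.11, 1.57 and 13.97 FPKM, log2 difference 2.40), Egr2 (0.45, 0.3 and 2.67 FPKM, 1.42) and Egr3 (0.39, 0.32 and 2.38 FPKM, 1.32). Egr2 and Egr3 passed the filter through their AAV-IL27 value alone. On the FPKM scale Egr1 was at 759% of the AAV-ctrl mean in the same library in which Fos was at 104%, Junb at 92.8%, Jun at 124% and Atf3 at 182%.

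**Figure D5:**
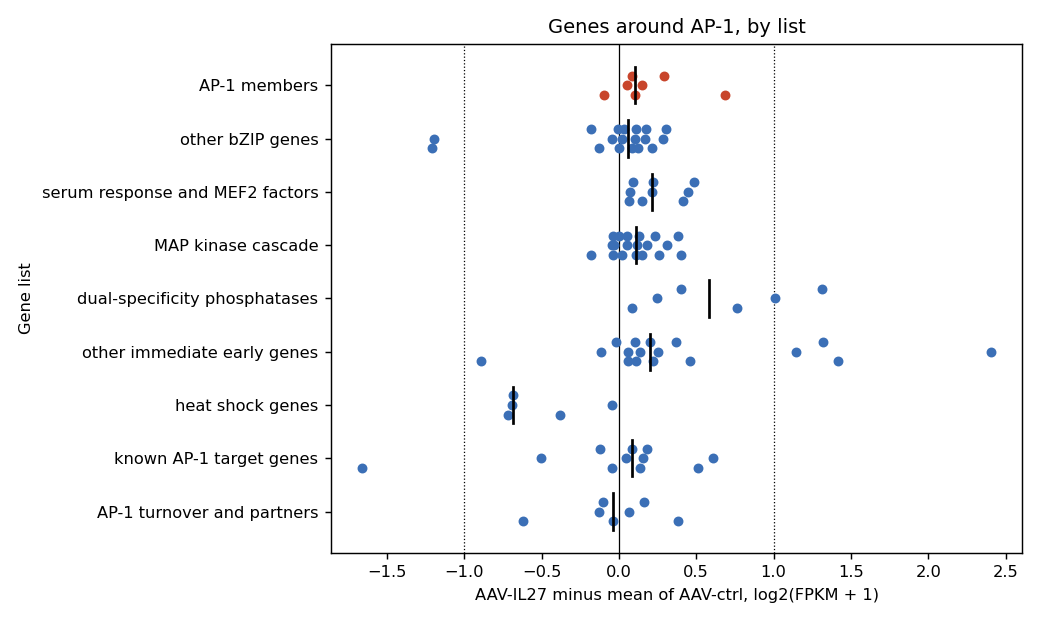
AAV-IL27 minus mean AAV-ctrl difference in log2(FPKM + 1) for each gene with a mean FPKM ≥ 1, by list (points, staggered for sight), with the median of each list as a vertical bar and dotted lines at -1 and 1. The AP-1 genes sit around a median of 0.10, the dual-specificity phosphatases around 0.58 and the heat shock genes around -0.69, and the point furthest to the right is Egr1 (2.40).

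Heat shock genes, which cells turn on under stress together with Atf3 and Jun, differed in the other direction from the AP-1 genes. All 5 of the 9 listed with a mean FPKM ≥ 1 lay below both AAV-ctrl libraries, where 41.9% of all genes lay, though none was called. Their median was -0.69, from -0.72 in Hspe1, a mitochondrial chaperone (5.25, 6.11 and 3.05 FPKM), to -0.04 in Dnajb1 (12.1, 11.82 and 11.59 FPKM). After rescaling the libraries, 4 of the 5 lay below both. Over all 9 genes the median was -0.38. Under the filter, Hsph1 (0.93, 1.11 and 0.15 FPKM) and Hspa1b (0.86, 1.36 and 0.64 FPKM) lay below both AAV-ctrl libraries. These genes missed the filter through their AAV-IL27 value. Hspa1a (0.39, 0.72 and 0.23 FPKM) also lay below both, and Hspb1 (0, 0 and 0.06 FPKM) above both.

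Known AP-1 target genes did not move in 1 direction. Of 11 with a mean FPKM ≥ 1 (14 of 17 were in the table), 6 lay above both AAV-ctrl libraries, 3 below, and the median was 0.09. The only one called was Hmox1, which encodes a haem-degrading enzyme. Hmox1 was lower at 207.37, 164.46 and 57.86 FPKM (log2 difference -1.66), as were the macrophage markers. The part of macrophages in its value was not tested. Genes for turnover and partners of AP-1 proteins had a median of -0.04 over 7 of 9 genes, none of them called. Irf8, a Batf partner, was lowest at 7.49, 7.89 and 4.66 FPKM (-0.62).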

How the data were processed

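BM Ly6G+ cells were profiled by RNA-seq of oligo-dT selected mRNA with strand-marked cDNA on DNBSEQ. The authors deposited FPKM values to 2 decimals per gene and library, not pooled, on genome build mm10 per the submitters' processing notes; aligner and counting tool are not given in the sources used here. Groups came from the sample titles. The table has 1 more column of per-sample values, named as another AAV-IL27 replicate. It fits no listed sample and is not analysed here, so the AAV-IL27 values rest on 1 library. Of 16073 rows, 1 had no symbol and was left out. All 10 genes matched a RefSeq gene by NCBI Gene number.

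Differences were log2(FPKM + 1) of AAV-IL27 minus the mean of AAV-ctrl, without a test. Depth was estimated from the smallest steps in FPKM at low genes whose transcripts share 1 length in GENCODE M21, less 50 nt. This gave 18650000 (AAV-ctrl 1), 18900000 (AAV-ctrl 2) and 18750000 (AAV-IL27) fragments, with 84.2%, 79.9% and 80.2% of 355, 344 and 353 values within 0.2 of a whole fragment; as not nearly all were whole, no count test was run and fragment numbers are estimates. Intervals are exact Poisson intervals (95%). The calls and the depth estimate were tested on simulated data. The simulation had counting error only, no differences between mice, and changes only in genes more abundant than Atf3. It therefore cannot show how reliable the calls are in these libraries. Motifs were searched in RefSeq promoters. Other genes were named when called, or otherwise as the highest and lowest of their list. Of the genes this rule names, 2 are not reported here. The AP-1 genes and the lists were chosen with earlier results of these data known. Alternatives were pseudocounts of 0.1 and 0.01, other filters and thresholds, 2 rescalings and leaving out each AAV-ctrl library. The tools were pandas 2.3.3 and numpy 2.4.6 under Python 3.11.15, with scipy 1.17.1 for intervals and matplotlib 3.10.9 for plots.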

Additional observations from a re-analysis of the deposited data

How the results depend on the processing

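No AP-1 gene with a mean FPKM ≥ 1 was called under any alternative except a threshold of 0.5, at which 1 (Atf3) was higher and 0 were lower. The median log2 difference of the AP-1 genes, 0.10, was 0.16 after median-ratio rescaling, which shifted all genes by a median of 0.053, and ranged from 0.081 to 0.16 over leaving out either AAV-ctrl library. The 6 genes above both AAV-ctrl libraries ranged from 6 to 7 and the 0 below from 0 to 1 over leaving out either library; without a filter on low values 1 (Fosl1) was below. Of the single genes, Jun ranged from 0.27 to 0.35, Atf3 from 0.52 to 0.88 and Maff from 0.36 to 1.31 over 6 alternatives, the last with a pseudocount of 0.01, which widens low genes by its construction. Junb changed sign without AAV-ctrl 1 (0.05, against -0.25 without AAV-ctrl 2), as did Fosb in 3 of 6 alternatives. Over all genes, the 212 lower became 396 and 425 with pseudocounts of 0.1 and 0.01, 93 with a mean FPKM ≥ 5, 640 at a threshold of 0.5 and 39 at 2, and the 28 higher became 46 with a pseudocount of 0.01, 49 without AAV-ctrl 2, 143 at 0.5 and 5 at 2. Without a filter on low values, list medians became 0.25 (dual-specificity phosphatases), 0.14 (other immediate early genes), 0.08 (MAP kinase cascade), 0.00 (known targets), -0.07 (turnover and partners) and -0.38 (heat shock). Dusp2 joined Dusp5 as called after median-ratio rescaling. No paired analysis was possible because AAV-IL27 has 1 library analysed here.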

Other observations

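The genes nearest to Fos over the 3 libraries, by Euclidean distance on log2(FPKM + 1), were, with values for AAV-ctrl 1, AAV-ctrl 2 and AAV-IL27, Aes at 248.54, 262.52 and 267.72 FPKM (distance 0.081), Eif1 at 243.11, 247.7 and 244.44 FPKM (0.082) and Degs1 at 241.16, 242.32 and 246.43 FPKM (0.092). With 3 libraries this is a likeness of level.

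Chosen after their values were seen, 2 further immediate early genes differed in opposite directions. Nr4a1, an orphan nuclear receptor, was at 18.52, 13.17 and 35.79 FPKM, 0.91 above the nearer AAV-ctrl library, and Ppp1r15a, a stress-induced phosphatase subunit that restores translation, was at 15.47, 11.06 and 6.6 FPKM, 0.67 below it (gap of -0.67 on the log2 scale). The AAV-ctrl libraries differed from each other by -0.46 and -0.45 in these genes.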
